A study of Mus musculus with 6 samples.

Results

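The unfolded protein response genes are 32 genes whose products sense misfolded protein in the endoplasmic reticulum (ER), fold and disulfide-bond secreted proteins, or send failed ones to degradation. They were taken by gene symbol from the feature lists of 6 single-cell RNA libraries of mouse liver, and all 32 were found among the 25369 genes listed in any library. The members fall into 6 roles. There were 6 sensors and transcription factors, 11 folding chaperones, 4 disulfide isomerases, 6 genes of ER-associated degradation, 2 of translocation, and 3 targets of the transcription factors ATF4 and CHOP.

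All libraries came from wild-type male mice, each labelled as from a mouse but with no animal identifier. The mice had partial inferior vena cava ligation (pIVCL), a narrowing of the vein above the liver that congests it, at 8 to 10 weeks of age. Osmotic pumps were placed under the skin 2 weeks later, and the livers were taken after 4 weeks of pump treatment. The 3 DMSO libraries received the vehicle, and the 3 CWHM-12 libraries received CWHM-12, an inhibitor of all αV integrins, at 100 mg/kg/day. Every animal therefore carried pIVCL, and no unligated liver was analysed here. DMSO 1, DMSO 2 and CWHM-12 1 carry the batch label 2024.6, and DMSO 3, CWHM-12 2 and CWHM-12 3 carry 2024.12. Livers were digested with pronase and collagenase, mixed to 90% nonparenchymal cells and 10% hepatocytes, and captured on the BD Rhapsody whole transcriptome platform. P-values measure the spread between libraries, which may be partly technical.

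In the unfolded protein response, 3 ER membrane proteins sense misfolded protein. IRE1α, encoded by Ern1, splices the Xbp1 mRNA, PERK, encoded by Eif2ak3, slows translation and raises ATF4, and ATF6 is cut in the Golgi to release a transcription factor. XBP1 and ATF6 induce chaperones, isomerases and degradation factors, while ATF4 and CHOP, encoded by Ddit3, induce amino acid and apoptosis genes. In liver the pathway is best known from hepatocytes, which secrete the plasma proteins, and outside it from plasma cells, which secrete antibody.

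The promoters of several members hold the DNA elements through which these factors act, and they are printed because they link the sensors to the chaperones described below. Promoters of 300 bases, from 250 before to 50 after the start site, were taken from RefSeq on GRCm38.p6 and matched 28 of the 32 members. Atf6, Hyou1, Manf and Derl1 had no entry. The ER stress response element (ERSE), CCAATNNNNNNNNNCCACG on either strand, was found in 8 members and in 0.137% of 27025 genes. Each line gives the gene strand 5′ to 3′ with the element in capitals.
Hspa5: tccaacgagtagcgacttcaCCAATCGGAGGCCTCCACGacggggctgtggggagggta
Hsp90b1, distal: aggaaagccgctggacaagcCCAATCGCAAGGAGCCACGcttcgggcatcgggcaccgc
Hsp90b1, proximal: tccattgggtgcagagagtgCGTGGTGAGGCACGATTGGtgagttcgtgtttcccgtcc
Calr: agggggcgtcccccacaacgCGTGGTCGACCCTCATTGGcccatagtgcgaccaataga
Canx: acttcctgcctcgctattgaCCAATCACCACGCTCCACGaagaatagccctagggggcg
Dnajc3: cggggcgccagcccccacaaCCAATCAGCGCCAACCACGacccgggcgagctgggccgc
Creld2: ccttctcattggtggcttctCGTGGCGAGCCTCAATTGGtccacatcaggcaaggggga
Pdia6: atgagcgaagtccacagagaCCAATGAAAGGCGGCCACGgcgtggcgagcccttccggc
Syvn1: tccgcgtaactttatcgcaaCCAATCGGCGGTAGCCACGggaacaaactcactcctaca

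The Hspa5 window lies at chr2:34772005-34772063 on the plus strand, with its element at positions -65 to -47 from the start site. The distal Hsp90b1 window lies at chr10:86705618-86705676 and the proximal one at chr10:86705513-86705571, both on the minus strand. The Calr window lies at chr8:84847055-84847113 on the minus strand and the Canx window at chr11:50325780-50325838 on the minus strand. The Dnajc3 window lies at chr14:118937807-118937865, Creld2 at chr15:88819500-88819558, Pdia6 at chr12:17266471-17266529 and Syvn1 at chr19:6046512-6046570, all on the plus strand. Capitals that open with CGTGG show the element on the opposite strand, as in Calr, Creld2 and the proximal element of Hsp90b1.

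A shorter form, ERSE-II (ATTGG, then any base, then CCACG), was found in Herpud1 and Dnajb11, against 0.0444% of genes. The UPRE sequence TGACGTGG was found in 0 members and in 0.714% of genes. The C/EBP-ATF element TGATGNAA, through which ATF4 and CHOP act, was found in Herpud1, Trib3, Chac1 and Asns, and in 4.51% of genes. These windows are shown because Chac1 and Asns have the largest differences between classes below, and Herpud1 holds both kinds of element.
Herpud1, ERSE-II: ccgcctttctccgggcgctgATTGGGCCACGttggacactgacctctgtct
Herpud1, C/EBP-ATF: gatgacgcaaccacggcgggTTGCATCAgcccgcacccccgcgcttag
Chac1, C/EBP-ATF: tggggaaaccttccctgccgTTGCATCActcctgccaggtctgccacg
Asns, C/EBP-ATF: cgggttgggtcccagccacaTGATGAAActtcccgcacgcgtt

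The ERSE-II window of Herpud1 lies at chr8:94386357-94386407 and its C/EBP-ATF window at chr8:94386297-94386344, both on the plus strand. The Chac1 window lies at chr2:119351029-119351076 on the plus strand, and the Asns window at chr6:7693210-7693252 on the minus strand. The elements of Trib3 and Dnajb11 lay after the start site and are named only. A match is a description of letters and was not tested as a binding site.

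Library totals ran from 28220477 to 48100436 UMIs (unique molecular identifiers, each a counted RNA molecule) over 10000 barcodes each, and at most 5 barcodes were shared by 2 libraries. After filters, 37982 cells remained in 38 clusters, of which 12 clusters with 5045 cells stayed unnamed. The 6 main classes were liver sinusoidal endothelial cells (LSEC, 8797 cells), hepatocytes (8519), Kupffer cells (5420), B cells (2568), stellate cells (2407) and cholangiocytes (808). All class markers were highest in their own class among these 6, with the exception of 1 of the 13 LSEC markers. The clusters were named from these same lists, so this is a description and does not test the names. Some unnamed clusters scored highest for a main class. Cluster 10 (1739 cells) scored 1.02 for LSEC and 0.424 for vascular endothelial cells. It held 141, 87 and 51 cells with DMSO and 96, 611 and 753 with CWHM-12. Cluster 17 (783 cells) scored highest for Kupffer cells. Both are left out of the LSEC and Kupffer values below. DMSO 2 stood apart. It had 5867 barcodes under 300 genes, against 884 to 2783 in the others, and the lowest share of ribosomal protein UMIs in 5 of the 6 classes, such as 3.95% against 4.75% to 5.91% in LSEC. Fold changes of members named under treatment are therefore also given without it. In these data, levels are UMI counts scaled to the total UMIs of a class in a library (CPM), listed for single libraries in the order 1 to 3. In such sums, less RNA per cell for a gene and fewer cells with it cannot be told apart.

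The class comparison asked which liver cell types hold the machinery. Stellate cells had the highest mean of the 6 main classes for 12 members, Kupffer cells for 9, hepatocytes for 4, B cells for 3, and LSEC and cholangiocytes for 2 each. In most cases the highest and next class overlapped between libraries, and only Sdf2l1 and Derl1, both highest in Kupffer cells, were separated from the next class. The share of all genes separated in this way was not computed, so it is not known whether this is few. Each class was then tested against the mean of the other 5 in edgeR, with the library as a block and Benjamini-Hochberg adjustment over 13466 genes at 0.05.

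In Kupffer cells, the resident liver macrophages, 23 of 32 members were higher and 4 lower, where 32% of all genes tested were higher and 33.2% lower. In stellate cells, the vitamin A-storing pericytes that make matrix, 19 were higher and 2 lower, where 30.6% and 29.7% of all genes were. LSEC had 12 higher and 5 lower, with 30.4% and 34.4% among all genes. Hepatocytes had 9 higher and 15 lower, with 37.3% and 36.3% among all genes. Cholangiocytes, the bile duct cells, had 4 higher and 18 lower, with 30.7% and 31.2% among all genes. B cells had 4 higher and 19 lower, with 29.4% and 37.3% among all genes. Without DMSO 2 the counts of higher and lower members were 21 and 4 in Kupffer cells, 19 and 2 in stellate cells, 13 and 5 in LSEC, 9 and 17 in hepatocytes, 5 and 19 in cholangiocytes, and 4 and 20 in B cells. The median log2 fold change over the members was 0.52 in Kupffer cells, 0.40 in stellate cells, 0.09 in LSEC, -0.22 in hepatocytes, -0.31 in cholangiocytes and -0.65 in B cells. The medians over all genes lay between -0.24 in B cells and -0.07 in cholangiocytes.

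**Figure D1:**
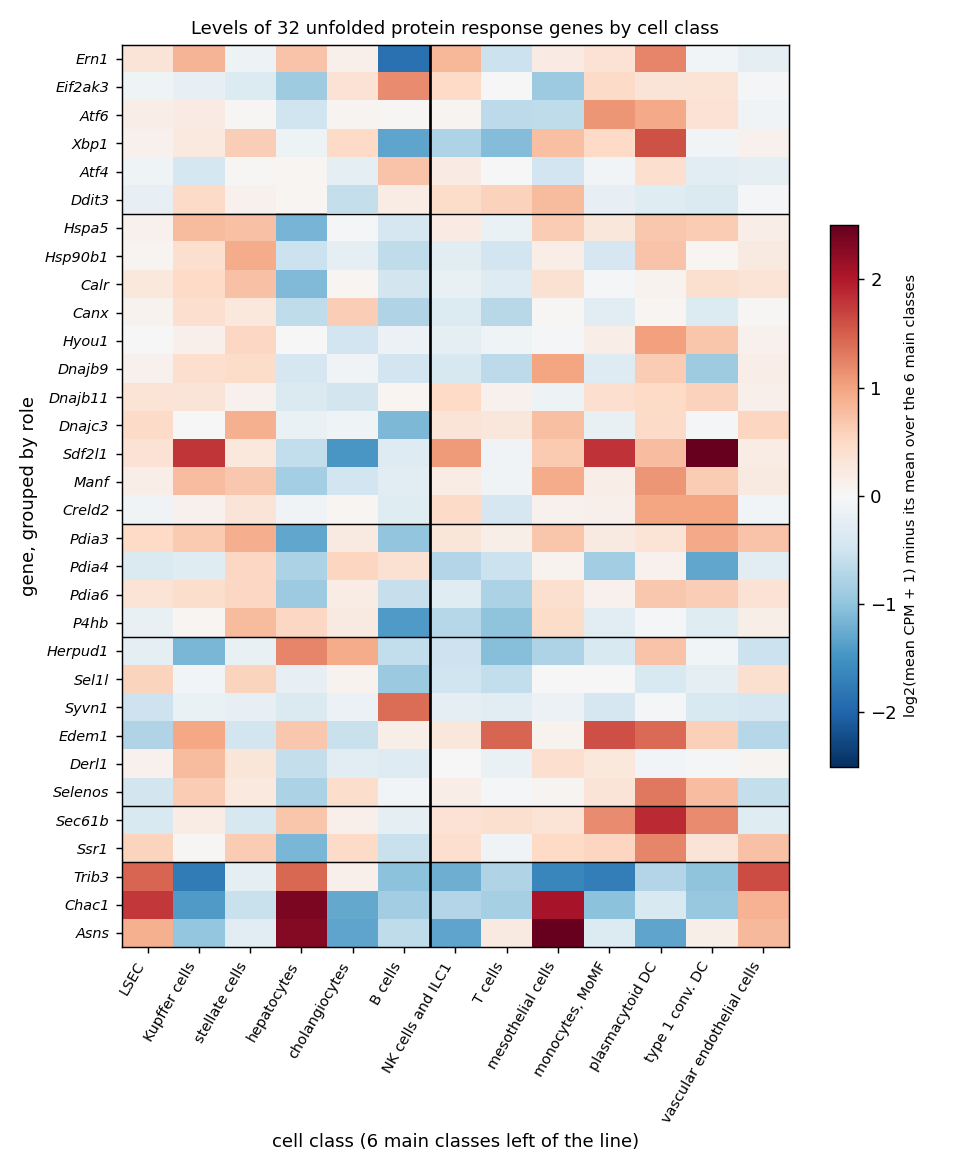
Mean level of each of the 32 genes (rows, grouped by role) in 13 cell classes (columns, the 6 main classes left of the line), as log2(mean CPM + 1) minus the gene's mean over the 6 main classes. The 11 chaperone rows are red or near white in Kupffer and stellate cells, and the 3 bottom rows, Trib3, Chac1 and Asns, are red in LSEC and hepatocytes.

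Among the sensors, Ern1 and Eif2ak3 had opposite extremes in B cells. Ern1 stood in B cells at 7.40, 14.4 and 3.04 CPM with DMSO and 5.06, 4.89 and 0 CPM with CWHM-12. In Kupffer cells it stood at 41.0, 45.2 and 49.8 CPM with DMSO and 47.1, 38.4 and 39.97 CPM with CWHM-12, so that the lowest Kupffer library lay above the highest B cell library. The log2 fold change over the other classes was -2.44 (SE 0.31) in B cells and 1.42 (SE 0.16) in Kupffer cells. Eif2ak3 was highest in B cells at 48.8 ± 10.9 CPM (SD, n = 6) and lowest in hepatocytes at 10.9 ± 7.69 CPM, with log2 fold changes of 1.54 (SE 0.16) and -1.32 (SE 0.20). Atf6 varied least of the sensors, from 77.5 ± 8.66 CPM in Kupffer cells to 47.4 ± 27.4 CPM in hepatocytes.

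Xbp1, the target of IRE1α splicing, was also lowest in B cells. It stood there at 75.7 ± 22.3 CPM (log2 fold change -1.75, SE 0.13) and highest in stellate cells at 292.7 ± 44.97 CPM (0.79, SE 0.10), with cholangiocytes next at 271.9 ± 34.4 CPM and overlapping. Atf4 was highest in B cells at 193 ± 40.3 CPM (0.80, SE 0.09) and lowest in Kupffer cells at 85.3 ± 23.1 CPM (-0.32, SE 0.09). Ddit3 was low in every class, from 14.02 ± 3.10 CPM in Kupffer cells to 6.15 ± 4.05 CPM in cholangiocytes, and passed the test as higher in Kupffer cells and lower in cholangiocytes. UMI counts of Xbp1 do not separate its spliced from its unspliced form.

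The folding chaperones showed the clearest division by class. All 11 were higher in Kupffer cells and 10 of 11 in stellate cells, with Dnajb11 as the exception, while 4 of 11 were higher in LSEC. Of the 11, 7 were lower in hepatocytes, 9 in B cells and 10 in cholangiocytes, where Canx alone was higher. Hspa5, which encodes BiP, the main ER chaperone and the brake on all 3 sensors, stood in Kupffer cells at 1056, 1184 and 696.7 CPM with DMSO and 925.7, 1032 and 1072 CPM with CWHM-12. In hepatocytes it stood at 415.6, 467.3 and 120.5 CPM with DMSO and 226.8, 194.4 and 126.6 CPM with CWHM-12. Every Kupffer library lay above every hepatocyte library. Its log2 fold change was 1.21 (SE 0.12) in Kupffer cells, 0.96 (SE 0.12) in stellate cells and -1.29 (SE 0.14) in hepatocytes.

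Sdf2l1, a partner of BiP and its co-chaperone ERdj3, had the largest log2 fold change of the chaperones in Kupffer cells. It stood in Kupffer cells at 68.7, 61.6 and 68.5 CPM with DMSO and 86.9, 78.0 and 75.8 CPM with CWHM-12, above the 23.8 to 34.6 CPM of LSEC, the next class. Its log2 fold change in Kupffer cells was 2.44 (SE 0.11, adjusted p = 5.61e-21 in edgeR). The lowest class was cholangiocytes at 6.84 ± 2.15 CPM (-2.22, SE 0.22).

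Hsp90b1, the ER HSP90 also called GRP94, was highest in stellate cells at 1579 ± 232.2 CPM (log2 fold change 1.21, SE 0.12) and lowest in B cells at 529.7 ± 171.3 CPM. Calr, a lectin chaperone of glycoproteins, was also highest in stellate cells, at 958.1 ± 157.5 CPM (0.93, SE 0.10), and lowest in hepatocytes at 266.6 ± 61.0 CPM. Its membrane partner Canx was instead highest in cholangiocytes at 673.0 ± 109.8 CPM (0.35, SE 0.11), with B cells lowest at 261.0 ± 41.7 CPM. Dnajc3, a BiP co-chaperone also called p58IPK, was 394.3 ± 41.4 CPM in stellate cells (1.12, SE 0.10) and 97.1 ± 10.9 CPM in B cells (-1.45, SE 0.13), and these ranges did not overlap.

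Manf, a secreted ER protein, was highest in Kupffer cells at 202.4 ± 32.8 CPM (log2 fold change 1.17, SE 0.11) and lowest in hepatocytes at 65.0 ± 13.9 CPM. Dnajb9, a co-chaperone that acts on IRE1α, was highest in stellate cells at 100.3 ± 13.5 CPM and lowest in B cells at 51.6 ± 11.01 CPM. Hyou1, a nucleotide exchange factor for BiP, was highest in stellate cells at 51.0 ± 14.4 CPM and lowest in cholangiocytes at 24.8 ± 7.01 CPM. Dnajb11, which encodes ERdj3, was highest in LSEC at 56.6 ± 5.15 CPM and lowest in cholangiocytes at 31.9 ± 7.98 CPM. Creld2 ranged least of the chaperones, from 48.5 ± 8.08 CPM in stellate cells to 31.02 ± 11.7 CPM in B cells.

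Of the disulfide isomerases, all 4 were higher in stellate cells and 3 in Kupffer cells, and 3 were lower in hepatocytes and in B cells. P4hb, which is both the main isomerase and a subunit of the collagen prolyl hydroxylase, stood at 356.1 ± 67.4 CPM in stellate cells (log2 fold change 1.01, SE 0.13) and 75.8 ± 11.4 CPM in B cells (-1.81, SE 0.17). It was also the isomerase that was higher in hepatocytes (0.86, SE 0.13), at 294.2 ± 132.2 CPM. Pdia3, which works with the calnexin cycle on glycoproteins, was highest in stellate cells at 569.1 ± 49.7 CPM (1.17, SE 0.09) and lowest in hepatocytes at 121.9 ± 41.7 CPM (-1.35, SE 0.11). Pdia6 was highest in stellate cells at 146.4 ± 28.6 CPM and lowest in hepatocytes at 54.2 ± 10.7 CPM. Pdia4 was highest in cholangiocytes at 99.5 ± 13.9 CPM and lowest in hepatocytes at 39.1 ± 15.4 CPM. Pdia4 also passed as higher in B cells (0.32, SE 0.13), a direction that turned with the DMSO libraries only (-0.07).

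Genes of ER-associated degradation did not share a class. Herpud1, a membrane scaffold of the degradation complex, was highest in hepatocytes, at 761.6, 1781 and 486.5 CPM with DMSO and 847.1, 719.0 and 854.0 CPM with CWHM-12 (log2 fold change 1.62, SE 0.12). It was lowest in Kupffer cells at 176.8 ± 32.3 CPM (-1.12, SE 0.14), and the highest Kupffer library, at 211.6 CPM, lay below every hepatocyte library. Syvn1, the ubiquitin ligase HRD1, was highest in B cells, at 205.4, 49.5 and 166.9 CPM with DMSO and 192.7, 161.5 and 116.0 CPM with CWHM-12 (1.63, SE 0.13). The DMSO 2 value was the low one, and it lay inside the range of other classes. Sel1l, the partner of HRD1, was instead lowest in B cells at 53.8 ± 15.2 CPM (-1.19, SE 0.18), with stellate cells at 152.7 ± 26.6 CPM and LSEC at 152.3 ± 13.1 CPM highest and overlapping.

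Edem1, a lectin that hands misfolded glycoproteins to degradation, split the nonparenchymal cells. It stood at 81.7, 80.1 and 64.3 CPM in Kupffer cells with DMSO and 93.9, 94.6 and 102.8 CPM with CWHM-12, against 21.6 to 28.9 CPM in LSEC. The log2 fold change was 1.41 (SE 0.08) in Kupffer cells, 1.10 (SE 0.09) in hepatocytes and -0.97 (SE 0.09) in LSEC. Derl1, a channel protein of the same pathway, was 179.6 ± 18.5 CPM in Kupffer cells (1.20, SE 0.08) and lowest in hepatocytes at 68.0 ± 11.4 CPM. Selenos, a selenoprotein that binds the Derlins, was highest in Kupffer cells at 125.4 ± 14 CPM (1.02, SE 0.10) and lowest in hepatocytes at 45.8 ± 14.3 CPM. For translocation into the ER, Sec61b, a subunit of the channel, was highest in hepatocytes at 205.4 ± 90.1 CPM (1.03, SE 0.15) and lowest in stellate cells at 96.5 ± 12.9 CPM. Ssr1, of the channel-associated TRAP complex, was lowest in hepatocytes at 54.9 ± 15.96 CPM (-1.16, SE 0.11) and highest in stellate cells at 189.3 ± 39.6 CPM.

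**Figure D2:**
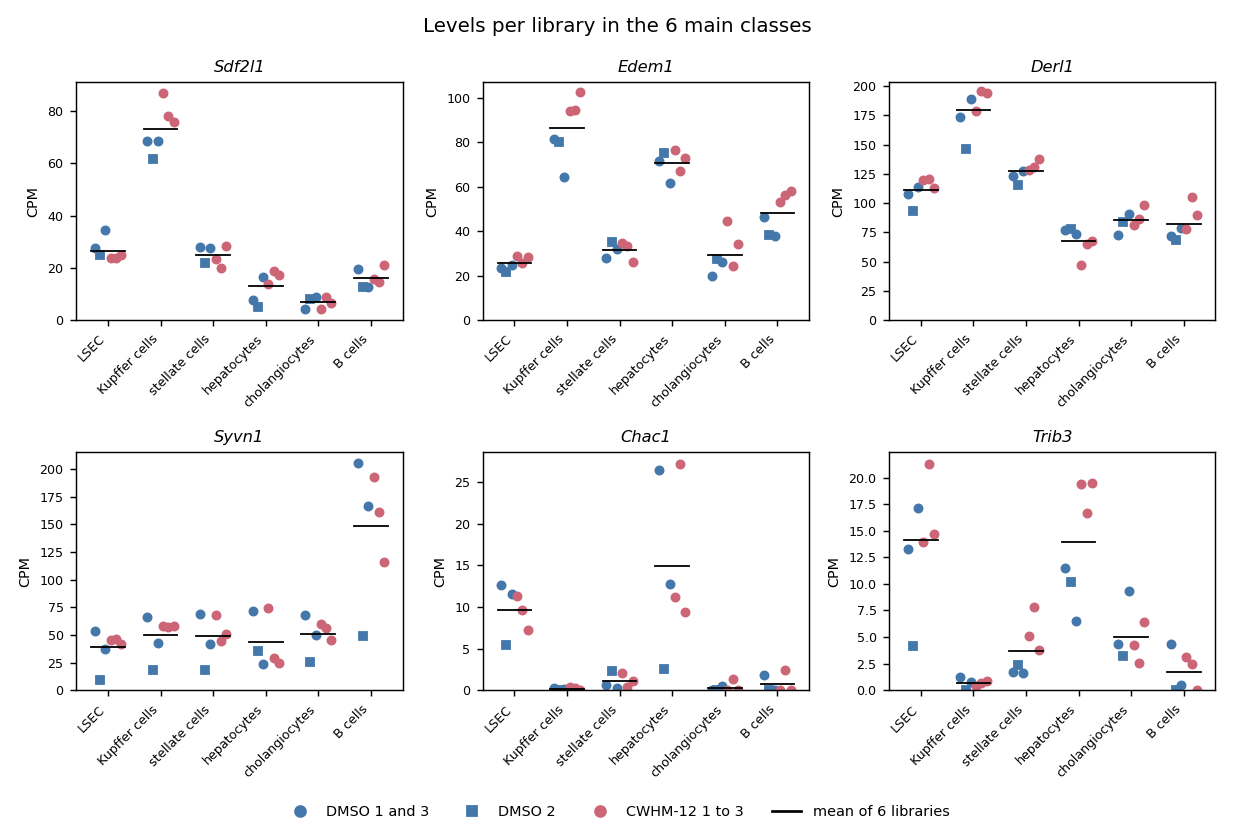
Level in CPM (y axis, linear from 0) of Sdf2l1, Edem1, Derl1, Syvn1, Chac1 and Trib3 in each library of the 6 main classes. Blue circles are DMSO 1 and 3, blue squares DMSO 2, red circles CWHM-12 1 to 3, and bars the mean of 6 libraries. Sdf2l1 in Kupffer cells lies above every other class, and Syvn1 in DMSO 2 is the low point of B cells at 49.5 CPM.

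The 3 targets of ATF4 and CHOP were all higher in hepatocytes and in LSEC. Chac1, a glutathione-degrading enzyme, stood in LSEC at 12.6, 5.39 and 11.6 CPM with DMSO and 11.3, 9.60 and 7.19 CPM with CWHM-12. In hepatocytes it stood at 26.4, 2.55 and 12.7 CPM with DMSO and 11.2, 27.2 and 9.44 CPM with CWHM-12, and in Kupffer cells it was at 0 to 0.42 CPM. Its log2 fold change was 4.29 (SE 0.29) in hepatocytes, 3.40 (SE 0.27) in LSEC and -3.04 (SE 0.64) in Kupffer cells, where it rested on 6 UMIs. Trib3, a pseudokinase that restrains ATF4 and AKT, was 14.1 ± 5.69 CPM in LSEC (1.99, SE 0.21), 13.97 ± 5.35 CPM in hepatocytes (2.29, SE 0.24) and 0.64 ± 0.41 CPM in Kupffer cells (-3.001, SE 0.35). Asns, asparagine synthetase, was 11.2 ± 5.38 CPM in hepatocytes (4.92, SE 0.34) and 3.65 ± 1.76 CPM in LSEC (2.46, SE 0.40). It gave 0 of 5860919 UMIs in cholangiocytes, which allows up to 0.512 CPM, counting 3 UMIs over the class as the limit for counting error only. Its call there as lower therefore has no usable fold.

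Hepatocyte marker RNA was measured beside these values. The 13 hepatocyte markers in LSEC stood at 0.97% to 5.92% of their level in the hepatocytes of the same library, and in Kupffer cells at 0.94% to 6.69%. Chac1 in LSEC stood at 35.3% to 211% of its hepatocyte level and Trib3 at 40.4% to 264%, while in Kupffer cells they stood at 0% to 3.77% and 0% to 11.5%. Asns in LSEC stood at 9.51% to 128% of its hepatocyte level. The 128% came from CWHM-12 2, at 2.68 CPM in LSEC, and the 211% of Chac1 from DMSO 2, at 5.39 CPM in LSEC. In both, the hepatocyte level rested on very few UMIs. In cholangiocytes the summed hepatocyte markers reached 12.9% to 19.8% of the hepatocyte level while Asns was at 0. Single markers differed in this. Among the main classes outside hepatocytes, Alb reached 7568 CPM, against 17620 CPM in hepatocytes, and Pck1 reached 74.0 CPM, against 7733 CPM. The percentages of the sum therefore depend on the marker and do not give a level of free hepatocyte RNA for other genes. Over all 13 classes with enough cells, Trib3 was highest in vascular endothelial cells at 16.1 ± 6.78 CPM, next to LSEC, and Asns in mesothelial cells at 13.2 ± 8.78 CPM (n = 5), next to hepatocytes.

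Beyond the 6 main classes, plasmacytoid dendritic cells, which secrete type I interferon, had the highest mean for 8 of the 32 members over 13 classes. In 0 of 32 members was the highest class separated from all others, and the share over all genes was not computed. In plasmacytoid dendritic cells Xbp1 stood at 581.4 ± 182.4 CPM (n = 5), Sec61b at 464.7 ± 106.7 CPM, Ssr1 at 283.6 ± 58.5 CPM, Manf at 256.9 ± 47.3 CPM and Selenos at 203.3 ± 53.5 CPM. Type 1 conventional dendritic cells were highest for Sdf2l1, at 134.3 ± 48.4 CPM (n = 5). Monocytes and monocyte-derived macrophages were highest for Edem1, at 135.7 ± 16.8 CPM (n = 6), and for Atf6, at 146.1 ± 24.6 CPM. These classes were not tested against the main ones.

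Plasma cells, the antibody-secreting form of B cells, numbered 26 over 5 libraries and were pooled, so no test was made. CWHM-12 2 gave 10 of them and CWHM-12 3 gave 8, so the pool is weighted to other libraries than that of the B cells. Xbp1 stood at 1519 CPM in plasma cells (exact Poisson interval 1335 to 1721 at 95%, counting error only) and at 70.7 CPM in B cells (64.4 to 77.5). Hsp90b1 stood at 2563 CPM against 460.5 CPM, Herpud1 at 2143 CPM against 250.9 CPM, Hspa5 at 1711 CPM against 401.5 CPM, and Edem1 at 531.1 CPM against 45.6 CPM. The 32 members summed to 14320 CPM in plasma cells and 3502 CPM in B cells, and for 22 of 32 the plasma interval lay above the B cell interval. Those without this separation were Ern1, Eif2ak3, Atf6, Atf4, Ddit3, Canx, Pdia3, Syvn1, Ssr1 and Trib3. The share of all genes separated in this way was not computed, so the count is a description. With doublets kept, which gave 69 plasma cells, Xbp1 stood at 1043 CPM, Herpud1 at 1156 CPM and Hspa5 at 983.1 CPM. The plasma interval then lay above the B cell interval for 25 members and below it for 2, Atf4 and Syvn1.

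Likeness of profile was measured as the correlation with Hspa5 of the mean levels across 13 classes, given as a description because the classes share libraries and depth. Manf (r = 0.92), Calr (0.91), Pdia3 (0.89) and Pdia6 (0.86) were most like Hspa5. Trib3 (-0.51), Herpud1 (-0.39) and Atf4 (-0.36) were least like it. Of the 8 members with an ERSE, Syvn1 stood alone in having a negative value (-0.22).

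The hepatocytes fell into 5 clusters, and 1 of them, cluster 11, differed from the others in the members. It held 5.05% to 22.2% of the hepatocytes of 5 libraries and 79.1% of those of DMSO 2, 368 cells of 465. Malat1, a nuclear long noncoding RNA, stood there at 8523 to 30270 CPM, against 58.2 to 356.6 CPM in the other 4 clusters. Neat1, also nuclear, stood at 442.3 to 1229 CPM against 0 to 80.9 CPM. The other 4 clusters were themselves low in Malat1, which stood at 707.3 to 2117 CPM in LSEC libraries. Relative to the library median, UMIs per cell were 0.457 in cluster 3 and 0.455 in cluster 8. They were 0.827 in cluster 12, 0.676 in cluster 14 and 0.565 in cluster 11. The part of depth and nuclear RNA in the hepatocyte class calls was not tested. The 32 members summed to 5171 to 8993 CPM in cluster 11 and to 2031 to 4675 CPM elsewhere, without overlap. No test was made between clusters, although the 32 members were left out of the genes that defined them.

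In cluster 11, 26 of 32 members had a higher median over libraries than in the other hepatocyte clusters, where 60.5% of 10536 genes with at least 50 UMIs in hepatocytes did. For 6 members all library values lay above all others, where 9.33% of these genes did. Herpud1 stood at 1707 to 2509 CPM against 294.1 to 1074 CPM, and Hsp90b1 at 765.8 to 1664 CPM against 107.1 to 620.7 CPM. Hyou1 stood at 60.7 to 149.5 CPM against 7.06 to 43.1 CPM, and Sel1l at 133.5 to 341.9 CPM against 10.9 to 97.0 CPM. Syvn1 stood at 44.5 to 297.1 CPM against 0 to 31.6 CPM, and Ddit3 at 13.01 to 34.9 CPM against 0 to 9.44 CPM. Sec61b went the other way, with a median of 12.98 CPM (6.35 to 110.1) against 261.3 CPM (97.0 to 414.9). The high Herpud1, Hsp90b1 and Ern1 and the low Sec61b of DMSO 2 hepatocytes went with its large share of cluster 11. Among the other libraries Herpud1 did not follow that share, at 761.6 CPM in DMSO 1 with 22.2% and 854.0 CPM in CWHM-12 3 with 5.76%. The part of nuclear RNA in these levels was not tested.

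**Figure D3:**
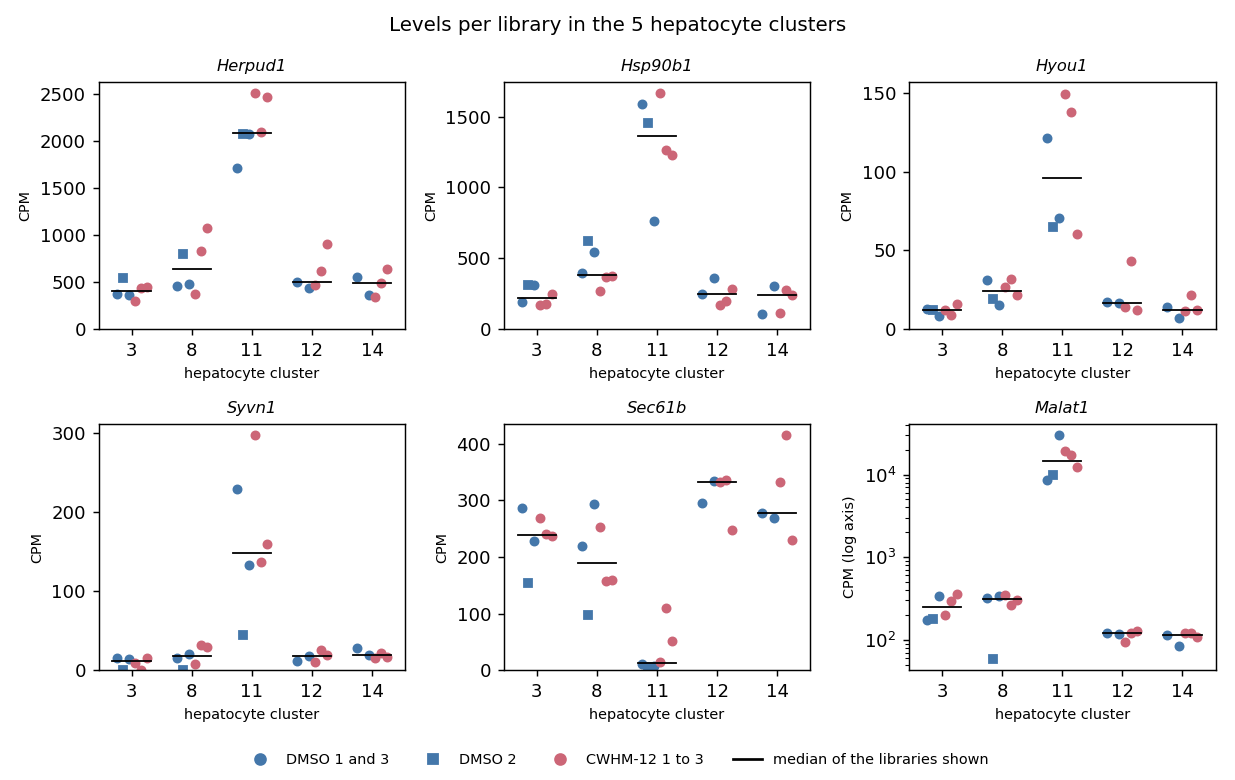
Level in CPM of Herpud1, Hsp90b1, Hyou1, Syvn1, Sec61b and Malat1 (y axis, log scale for Malat1 only) in each library with at least 20 cells of the 5 hepatocyte clusters (x axis). Blue circles are DMSO 1 and 3, blue squares DMSO 2, red circles CWHM-12 1 to 3, and bars the median of the libraries shown. Cluster 11 is above the other clusters for all but Sec61b, where its median is 12.98 CPM.

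Without cluster 11, an alternative added after seeing the data, hepatocytes had 8 members higher and 20 lower than the other classes. Ern1 turned from higher (log2 fold change 0.75) to lower (-0.35, adjusted p = 0.0467 in edgeR). Hspa5 went from -1.29 to -1.98, Syvn1 from -0.24 to -1.65 and Sel1l from -0.21 to -1.45, and Herpud1 stayed higher at 0.93. The ATF4 and CHOP targets moved little, with 4.41 for Chac1, 5.23 for Asns and 2.21 for Trib3. The LSEC count became 19 higher and 5 lower. The hepatocyte level enters the mean of the other classes in that contrast, and its part in the change was not tested. Shares over all genes are given for the main fit only, so these counts have none beside them.

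Genes of 8 further lists, chosen beside the members, were counted in the same class tests. The cytosolic heat shock list and the dissociation and immediate early list are not of the ER pathway. The shares of all genes higher and lower in each class are those given with the members' counts. In stellate cells 16 of 23 other ER folding and disulfide enzymes were higher and 1 lower, as were 13 and 1 of 18 genes of ER export and retrieval. In Kupffer cells 15 of 26 translocon, signal peptidase and oligosaccharyl transferase genes were higher and 2 lower, as were 9 and 1 of 17 other degradation genes and 14 and 4 of 21 other sensors and regulators. In hepatocytes 4 of the 26 translocon genes were higher and 18 lower, and 7 of 23 folding enzymes were higher and 13 lower. In B cells 0 of 18 export genes were higher and 17 lower, and 0 of 17 degradation genes were higher and 10 lower. Integrated stress response targets were split in LSEC, with 7 of 19 higher and 10 lower, and in Kupffer cells, with 11 higher and 7 lower. Cytosolic heat shock genes were higher in hepatocytes for 11 of 14 and lower for 1. Dissociation and immediate early genes were higher in Kupffer cells for 11 of 15 and lower in hepatocytes for 12 of 15.

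The treatment comparison asked whether 4 weeks of αV integrin inhibition changed the members within a cell type. No member passed the threshold used in any class. In simulated counts, edgeR called 65% of genes given a log2 fold change of 1 in LSEC and 33% in cholangiocytes. At a log2 fold change of 2 it called 100% and 98%. Smaller changes could be missed, so the absence of a call does not show the absence of a change. In edgeR's quasi-likelihood test with the batch as a term, 0 members passed in any of the 13 classes, and 0% of all genes passed in each of the 6 main classes. DESeq2 also called 0 members, and 2 genes in LSEC, 1 in Kupffer cells and 2 in hepatocytes. At an unadjusted p under 0.05 there were 1 of 32 members tested in LSEC (2.37% of all genes tested), 2 of 29 in Kupffer cells (2%) and 0 of 29 in stellate cells (1.88%). There were 3 of 32 in hepatocytes (2.31%), 1 of 27 in cholangiocytes (2.49%) and 1 of 28 in B cells (1.06%). In the 7 other classes 0.0848% of gene tests passed, 23 genes lower in mesothelial cells and 15 higher in NK cells and ILC1, and 0 of these were members. CWHM-12 1 had 11 mesothelial and 17 plasmacytoid dendritic cells and was left out of these 2 classes. With the batch term, DMSO 3 was then the only DMSO library there in a batch that also held CWHM-12 libraries.

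In LSEC, 12 members had a positive and 20 a negative fold change, with a median of -0.07 against 0.02 over all genes tested. Without DMSO 2 there were 14 positive and the median was -0.04. The chaperones were negative in 10 of 11, with medians of -0.25 in batch 2024.6 and -0.08 in batch 2024.12, and the sensors were positive in 5 of 6, with 0.35 and 0.10. The isomerases were negative in 4 of 4, but their median was 0.13 in batch 2024.6 and -0.29 in batch 2024.12. Groups of libraries did not overlap for 4 members with CWHM-12 above, where 5.58% of all genes did so, and for 3 with CWHM-12 below, where 6.05% did. On plain CPM, over genes with at least 50 UMIs in the class, 2 lay above (4.65% of genes) and 4 below (6.85%). Hsp90b1 stood at 994.1, 1131 and 976.6 CPM with DMSO and 902.0, 595.9 and 598.5 CPM with CWHM-12. All CWHM-12 libraries were lower, and the gap was wider in batch 2024.12. Its log2 fold change was -0.46 (SE 0.17, adjusted p = 0.996 in edgeR) and -0.44 without DMSO 2.

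The clusters that make up LSEC differed in share between libraries. Cluster 4 held 80.8%, 52.7% and 36.6% of LSEC with DMSO and 63.2%, 8.87% and 3.27% with CWHM-12, and cluster 9 held 1.15%, 1.58% and 8.37% against 1.74%, 15.5% and 53.2%. Hsp90b1 averaged 904.0 CPM in cluster 4, over 3 DMSO and 3 CWHM-12 libraries. In cluster 9 it averaged 669.2 CPM over 1 DMSO and 2 CWHM-12 libraries, so these means are not over like libraries. Cluster 4 and cluster 9 stood at 1056 and 866.8 CPM in DMSO 3 and 681.4 and 545.8 CPM in CWHM-12 2. In CWHM-12 3 they stood at 599 and 594.9 CPM for Hsp90b1. Within cluster 4 Hsp90b1 averaged 1074 CPM with DMSO and 734.5 CPM with CWHM-12. Within cluster 1 it averaged 987.1 and 696.7 CPM, with all CWHM-12 libraries lower in both clusters. In cluster 7 its groups overlapped, and cluster 9 had at least 20 cells in 1 DMSO library only. Pdia3 was lower in all CWHM-12 libraries within clusters 1, 4 and 7. Eif2ak3 was higher in all CWHM-12 libraries within cluster 1 and overlapped within clusters 4 and 7, where it averaged 16.8 CPM with DMSO and 14.7 CPM with CWHM-12 in cluster 4. The part of cluster shares in the class values of the other members was not tested.

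Pdia3 in LSEC stood at 454.6, 542.8 and 467.4 CPM with DMSO and 413.0, 329.6 and 380.5 CPM with CWHM-12, a log2 fold change of -0.32 (SE 0.17) and -0.26 without DMSO 2. Calr stood at 786.3, 779.9 and 832.0 CPM with DMSO and 793.7, 475.2 and 483.7 CPM with CWHM-12. The Calr groups overlapped, and its log2 fold change was -0.74 in batch 2024.12 and -0.004 in batch 2024.6, and -0.37 in all, with -0.43 without DMSO 2. Sel1l was also below, at -0.13, and -0.09 without DMSO 2. Eif2ak3 stood at 14.4, 16.5 and 20.1 CPM with DMSO and 22.2, 22.3 and 21.5 CPM with CWHM-12 (0.33, SE 0.20, and 0.35 without DMSO 2). Edem1 was above at 0.25 (0.22 without DMSO 2). Atf4 and Derl1 were above after scaling by TMM but not on plain CPM, at 0.26 and 0.15. Without DMSO 2, whose Atf4 level was the lowest of the 6, the values were 0.09 for Atf4 and 0.11 for Derl1.

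In Kupffer cells, 20 members had a positive and 9 a negative fold change, with a median of 0.10 against 0.01 over all genes. Without DMSO 2 the positive count was 17 and the median 0.04. Groups did not overlap for 4 members with CWHM-12 above, against 5.22% of genes, and for 0 below, against 5.76%. Edem1 stood at 81.7, 80.1 and 64.3 CPM with DMSO and 93.9, 94.6 and 102.8 CPM with CWHM-12. All CWHM-12 libraries were higher, with a log2 fold change of 0.42 (SE 0.17, adjusted p = 0.999 in edgeR) and 0.46 without DMSO 2. Dnajb9 stood at 82.6, 102.5 and 71.8 CPM with DMSO and 107.3, 109.1 and 115.1 CPM with CWHM-12 (0.43, SE 0.18, adjusted p = 0.999 in edgeR) and 0.54 without DMSO 2. Sdf2l1, whose libraries are given above, had a log2 fold change of 0.29 (SE 0.14) and 0.25 without DMSO 2. Atf4 had one of 0.40 (SE 0.22) with DMSO 2 and 0.27 without it. Cluster 0 held 21.9%, 53.7% and 52.7% of Kupffer cells with DMSO and 28.6%, 83.1% and 87.3% with CWHM-12, and cluster 6 held the rest. Dnajb9 averaged 103.5 CPM in cluster 0 and 75.6 CPM in cluster 6. Within cluster 0 all 4 of these members were higher in every CWHM-12 library, and within cluster 6 Edem1, Dnajb9 and Atf4 were, while Sdf2l1 overlapped.

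In stellate cells 0 members had groups that did not overlap, where 4.37% of genes lay above and 4.89% below. On plain CPM Derl1 lay above (5.26% of genes with at least 50 UMIs) and Pdia3 below (3.82%). The smallest p-values belonged to Ssr1 (-0.26, SE 0.22), Hsp90b1 (-0.20, SE 0.19) and Canx (-0.18, SE 0.19), and all 3 had an adjusted p of 1 in edgeR. Without DMSO 2 the values were -0.14 for Ssr1, -0.17 for Hsp90b1 and -0.17 for Canx. Hsp90b1 stood there at 1704, 1902 and 1549 CPM with DMSO and 1685, 1301 and 1333 CPM with CWHM-12. Signs were mixed, with 11 positive and 18 negative. The median over the members was -0.03, and -0.07 without DMSO 2.

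In hepatocytes, 8 members had a positive and 24 a negative fold change, with a median of -0.22 against -0.05 over all genes and -0.20 without DMSO 2. Groups did not overlap for 1 member above, against 3.61% of genes, and for 5 below, against 5.13%. On plain CPM 1 lay above (5.16% of genes with at least 50 UMIs) and 8 below (3.64%), with Calr, Dnajc3 and Derl1 added. Trib3 stood at 11.5, 10.2 and 6.49 CPM with DMSO and 19.4, 16.7 and 19.5 CPM with CWHM-12. All CWHM-12 libraries were higher, with a log2 fold change of 1.13 (SE 0.39, adjusted p = 0.997 in edgeR), 1.14 without DMSO 2 and 1.23 without cluster 11. Asns, a target of the same factor, went the other way, at 16.3, 14.1 and 15.8 CPM with DMSO and 10.3, 2.09 and 8.85 CPM with CWHM-12 (-0.86, SE 0.44), and -0.89 without DMSO 2. The CWHM-12 2 level of Asns rested on very few UMIs. Chac1 had a log2 fold change of -0.21.

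Canx in hepatocytes stood at 289.9, 342.2 and 421.0 CPM with DMSO and 187.0, 209.0 and 239.2 CPM with CWHM-12 (-0.85, SE 0.34, adjusted p = 0.997 in edgeR). Pdia3 stood at 148.3, 183.9 and 138.5 CPM with DMSO and 90.0, 75.2 and 95.7 CPM with CWHM-12 (-0.80, SE 0.33, adjusted p = 0.997 in edgeR). Both of these partners of the calnexin cycle were lower in every CWHM-12 library, and in both batches. Ssr1 (-0.63, SE 0.31) and Selenos (-0.47, SE 0.35) were also below. Without cluster 11 the values were -0.90 for Canx, -0.70 for Pdia3, -0.55 for Ssr1, -0.60 for Selenos and -1.02 for Asns. Without DMSO 2 they were -0.81 for Canx, -0.71 for Pdia3, -0.50 for Ssr1 and -0.43 for Selenos.

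Hepatocyte cluster shares also differed. Cluster 8 held 41.6% of the hepatocytes of DMSO 3 and 4.38% of those of CWHM-12 3, where clusters 12 and 14 held 40.2% and 46.2%. Canx averaged 361.5 CPM in cluster 8 and, over the libraries without DMSO 2, 218.6 CPM in cluster 14. Pdia3 averaged 134.9 and 72.2 CPM in the same way. Canx was lower in every CWHM-12 library within clusters 3, 8 and 12 and overlapped within clusters 11 and 14, where DMSO 2 had under 20 cells in clusters 12 and 14 and is left out of those. Within cluster 8 it averaged 458.6 CPM with DMSO and 264.4 CPM with CWHM-12. Pdia3 overlapped within each of the 5 clusters. Trib3 was higher in every CWHM-12 library within clusters 3 and 14 and overlapped in the others.

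In cholangiocytes 12 members were positive and 15 negative, with 0 above, against 5.18% of genes, and 4 below, against 5.41%. Pdia3 stood at 397.6, 477.4 and 377.7 CPM with DMSO and 289.6, 284.6 and 296.4 CPM with CWHM-12. All CWHM-12 libraries were lower, with a log2 fold change of -0.50 (SE 0.19, adjusted p = 1 in edgeR) and -0.41 without DMSO 2. Hsp90b1 (-0.37, SE 0.19), Canx (-0.29, SE 0.20) and Dnajc3 (-0.26, SE 0.18) were the others below, at -0.26, -0.20 and -0.25 without DMSO 2. The median over the members was -0.05, and -0.08 without DMSO 2.

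In B cells 21 members were positive and 7 negative, with a median of 0.13 against 0.01 over all genes. By batch, the median over the members was 0.005 in 2024.6 and 0.37 in 2024.12. Groups did not overlap for 4 members above, against 4.6% of genes, and for 1 below, against 5.17%. Pdia4 stood at 75.9, 54.3 and 72.8 CPM with DMSO and 97.9, 117.4 and 116.0 CPM with CWHM-12, with a log2 fold change of 0.62 (SE 0.25, adjusted p = 1 in edgeR) and 0.54 without DMSO 2. Pdia6 (0.65, SE 0.33), Edem1 (0.44, SE 0.28) and Selenos (0.37, SE 0.30) were also above, and Ssr1 was below (-0.44, SE 0.28). Xbp1 (0.61, SE 0.32) overlapped. Without DMSO 2 the values were 0.49 for Pdia6, 0.40 for Edem1, 0.37 for Selenos, -0.29 for Ssr1 and 0.48 for Xbp1, and the median over the members was 0.12. CWHM-12 3 held 77 B cells, in which Kupffer markers summed to 9660 CPM, against 159.6 to 1720 CPM in the other libraries, and their part in these values was not tested.

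**Figure D4:**
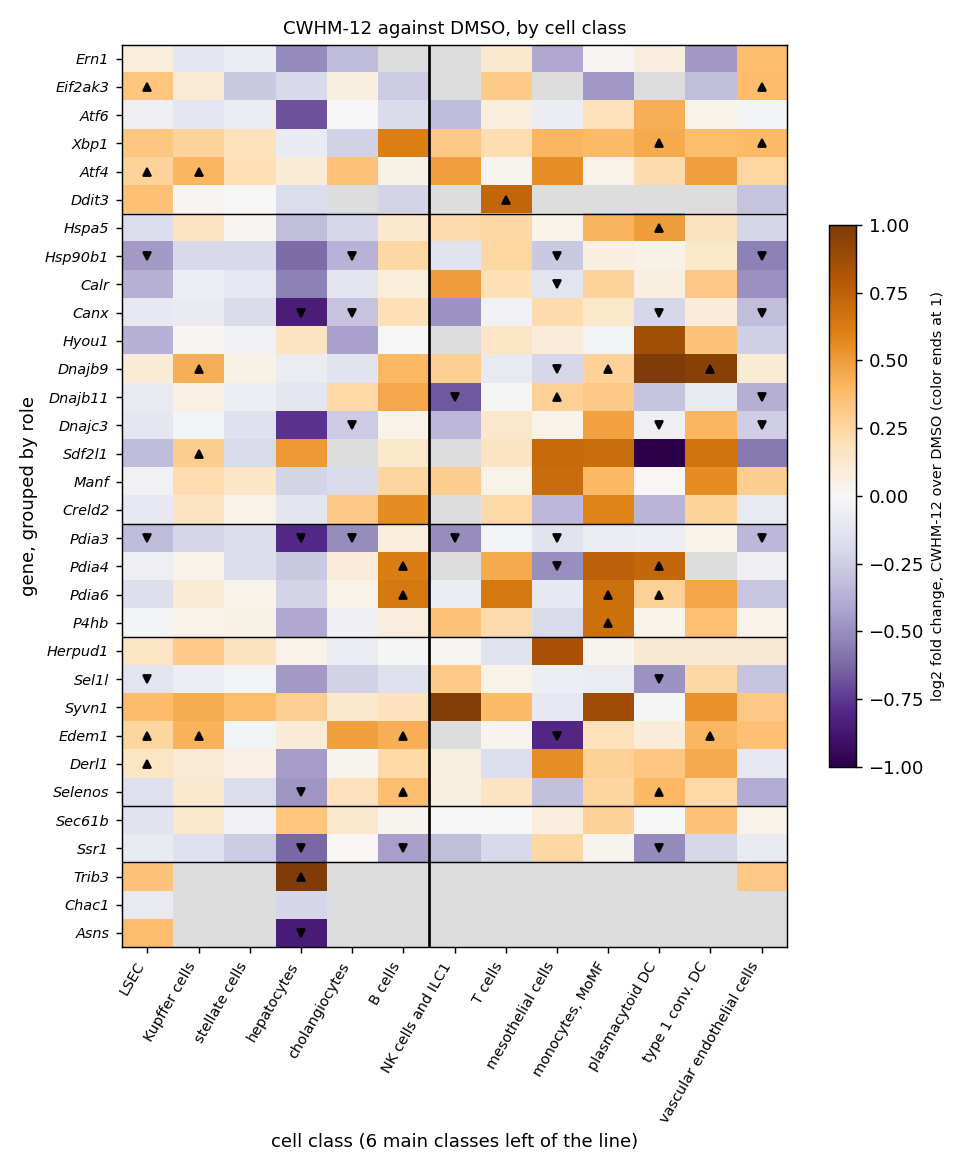
Log2 fold change of CWHM-12 over DMSO for each gene (rows, grouped by role) in 13 classes (columns), with color ending at 1 in either direction and grey where a gene was not tested. Triangles mark genes whose CWHM-12 libraries all lay above (up) or all below (down) the DMSO libraries. No cell of the plot passed the adjusted test, and the 5 downward triangles of hepatocytes include Canx and Pdia3.

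The signs of single members were also read across classes. Atf4 was positive in 13 of 13 classes, with a median of 0.24, but in 10 of 13 without DMSO 2, with a median of 0.12. Pdia3 was negative in 11 of 13, with a median of -0.17, and in 9 of 13 without DMSO 2, with a median of -0.11. Xbp1 was positive in 11 of 13 with DMSO 2 and in 12 of 13 without it. Edem1 was positive in 10 of 12 classes and in 10 of 13 without DMSO 2. Ssr1 was negative in 10 of 13 with a median of -0.20, which became -0.02 without DMSO 2. The classes share their libraries, so these counts are descriptions.

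**Figure D5:**
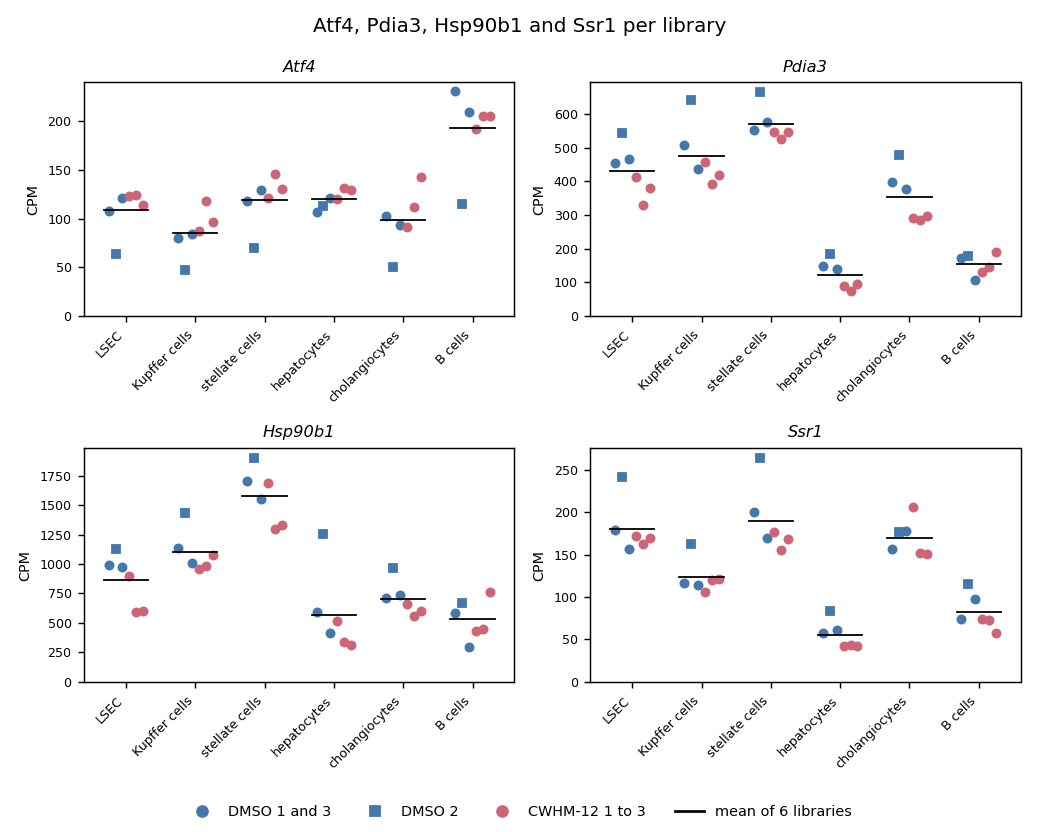
Level in CPM (y axis, linear from 0) of Atf4, Pdia3, Hsp90b1 and Ssr1 in each library of the 6 main classes. Blue circles are DMSO 1 and 3, blue squares DMSO 2, red circles CWHM-12 1 to 3, and bars the mean of 6 libraries. DMSO 2 is the low point of Atf4 in LSEC at 63.7 CPM and the high point of Ssr1 there at 242 CPM.

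Whether Kupffer cells and LSEC responded differently was tested as an interaction in edgeR. It called 0 of 32 members and 0.0077% of 12981 genes. The median difference, Kupffer cells minus LSEC, was 0.13 over the members and -0.002 over all genes. At an unadjusted p under 0.05 there were 4 of 32 members, all with positive differences, and 6.02% of all genes, and DESeq2 called 0 members. Sdf2l1 had the smallest p, with a difference of 0.61 (SE 0.14, adjusted p = 0.601 in edgeR). Its LSEC levels were 27.7, 25.1 and 34.6 CPM with DMSO and 23.8, 23.9 and 24.7 CPM with CWHM-12. Dnajb9 (0.34), Hspa5 (0.33) and Sec61b (0.26) were the others.

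The 8 further lists gave 0 calls under treatment in the 6 main classes. Dissociation and immediate early genes were positive for 14 of 15 in LSEC (median 0.45), Kupffer cells (0.47) and cholangiocytes (0.43), and for 3 of 14 in hepatocytes (-0.28, but -1.36 in batch 2024.6 and 0.86 in batch 2024.12). Jun, an AP-1 subunit, stood in Kupffer cells at a mean of 315.4 CPM under DMSO and 546.4 CPM under CWHM-12 (0.59, SE 0.16). Cytosolic heat shock genes were positive for 11 of 14 in LSEC, Kupffer cells and cholangiocytes, 10 of 13 in hepatocytes and 11 of 11 in B cells (0.46). By batch, 2024.6 before 2024.12, their medians were -0.13 and 0.39 in LSEC, -0.32 and 0.66 in Kupffer cells, 0.60 and -0.03 in hepatocytes, 0.08 and 0.13 in cholangiocytes, and 0.44 and 0.90 in B cells. Integrated stress response targets were positive for 14 of 14 in B cells (0.44), 11 of 15 in LSEC (0.25) and 10 of 13 in cholangiocytes (0.36). In cholangiocytes Atf3, a stress-induced repressor, stood at 25.5 CPM under DMSO and 76.9 CPM under CWHM-12 (1.58, SE 0.35). Immediate early and heat shock genes are known to respond to tissue digestion. The members' own medians in Kupffer cells were 0.01 in batch 2024.6 and 0.10 in batch 2024.12, and the part of digestion in these values was not tested.

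Of the genes that act beside the chaperones, these had mostly negative fold changes in hepatocytes, none of them called: 22 of 26 translocon, signal peptidase and oligosaccharyl transferase genes (median -0.30), 18 of 23 ER folding and disulfide enzymes (-0.26), 12 of 18 degradation genes (-0.18) and 14 of 20 other sensors and regulators (-0.27), where 45.6% of all hepatocyte genes tested were positive. ER export and retrieval genes were negative for 11 of 17 with a median of -0.04, near the -0.05 of all genes. Ero1a and Ero1b, the oxidases that recharge the isomerases, had log2 fold changes of -0.92 (SE 0.36) and -0.77 (SE 0.31) there. In LSEC the folding enzymes (0.05), translocon genes (0.02) and export genes (0.07) had medians near that of all genes. In stellate cells and cholangiocytes the folding enzymes had medians of 0.09 and 0.07.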

How the data were processed

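The deposited matrices hold UMI counts per gene and cell barcode from BD Rhapsody whole transcriptome libraries, as the authors deposited them and not normalized. The submitters' processing notes name GRCm39 as the build. An aligner and an annotation were not given in the sources used here. Cells with at least 300 genes and 500 UMIs and at most 30% mitochondrial UMIs were kept (3163 to 8447 per library). Doublets with a scanpy 1.11.5 Scrublet score of at least 0.25 were removed, 715 of 38697 cells. Cells were clustered on 2000 variable genes without the 32 members, 40 principal components, 20 neighbours and Leiden resolution 1.5, and clusters were named from marker lists.

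Counts were summed per class and library, where at least 20 cells were present in at least 5 libraries. They were tested in edgeR 4.0.16 (quasi-likelihood, TMM scaling, filterByExpr) with batch as a term for treatment and library as a block for classes, and with Benjamini-Hochberg adjustment at 0.05. Non-overlap of libraries was read on TMM-scaled CPM, and printed levels are plain CPM. Non-overlap on plain CPM and levels within clusters were added after seeing the data. DESeq2 1.42.0, other scalings and filters, single libraries left out and a replicate block were the alternatives. The tests were checked on simulated counts, and the share recovered is given with the treatment comparison.

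The 32 members and the other lists were chosen with earlier results of these data known. All 32 are described by role with their highest and lowest class. In each class the text names members that passed, otherwise the 3 with the smallest p, and any whose groups did not overlap, with at most 2 genes of each other list. Promoter sequences are RefSeq's on GRCm38.p6, a build other than that of the files, so no coordinate was carried between them.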

Additional observations from a re-analysis of the deposited data

Results flagged for a closer look

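Single libraries stood far from the other 5 in 18 of 192 groups of values examined, of which 15 were DMSO 2. Chance alone flags about 1 group in 20.

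In LSEC, DMSO 2 was low for Atf4 at 63.7 CPM (others 108 to 124) and for Syvn1 at 8.88 CPM (37.6 to 53.9), and high for Ssr1 at 242 CPM (157 to 179). DMSO 3 was high there for Sdf2l1 at 34.6 CPM (23.8 to 27.7). In Kupffer cells DMSO 2 was high for Hsp90b1 at 1435 CPM (957 to 1136), Ssr1 at 162 CPM (106 to 121) and Asns at 0.712 CPM (0.104 to 0.254), and low for Sec61b at 96.1 CPM (139 to 164). In stellate cells it was low for Atf4 at 69.6 CPM (118 to 146) and high for Pdia3 at 665 CPM (527 to 578).

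In hepatocytes DMSO 2 was high for Ern1 at 112 CPM (10.8 to 37.9), Hsp90b1 at 1254 CPM (312 to 594) and Herpud1 at 1781 CPM (486 to 854), and low for Sec61b at 30.6 CPM (202 to 279). In cholangiocytes it was low for Sec61b at 93.9 CPM (136 to 162), and CWHM-12 2 was high for Chac1 at 1.29 CPM (0 to 0.465). In B cells DMSO 2 was low for Atf4 at 115 CPM (192 to 231), and CWHM-12 3 was high for Selenos at 121 CPM (59.7 to 75.8).

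Selenos libraries lay apart in opposite directions in 2 classes, and neither difference passed the adjusted test in edgeR. All CWHM-12 libraries lay above the DMSO libraries in B cells (log2 fold change 0.374) and all lay below them in hepatocytes (-0.469). This difference between the classes was not tested.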

How the results depend on the processing

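Of 196 alternatives to the 14 counts of members called, 195 stayed within 1.5 times of the count reported. The exception was the cholangiocyte class count, which was 22 with all libraries and 12 with DMSO libraries only, a fit with fewer samples. The treatment and interaction counts are among the 195, at 0 in the main fit and in every alternative. In most of those fits few or no genes passed, so these counts could hardly differ and say little about stability. Leaving out single libraries gave 15 to 18 members in LSEC, 24 to 27 in Kupffer cells, 19 to 21 in stellate cells, 22 to 26 in hepatocytes, 16 to 24 in cholangiocytes and 20 to 24 in B cells. The 134 single class calls gave 1876 values over the alternatives. Of these values, 115, spread over 36 calls, were weaker and no longer passed the adjusted test. Direction changed for 2 calls. Ern1 in hepatocytes became -0.35 without cluster 11, an alternative chosen after seeing the data, and Pdia4 in B cells became -0.065 with DMSO libraries only, where the cause was not tested. Members called under treatment stayed at 0 in every alternative run. Over all genes, leaving out the filter on low counts raised the treatment calls from 0 to between 5 in B cells and 26 in cholangiocytes, and from 38 to 374 in the other classes. The 38 also became 0 without the batch term, 5 without CWHM-12 2 and 240 without DMSO 1, so that count is unstable.

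Deviations of same-numbered libraries correlated between -0.104 and 0.451 in the main classes. Libraries numbered 1 share a batch between the groups, as do those numbered 3, while those numbered 2 do not. Whether the numbers pair libraries therefore cannot be told from these values. With a replicate block, 0 members were called in each main class, and 13 genes in the other classes. The fit without DMSO 3 was not run in mesothelial and plasmacytoid dendritic cells, which left too few libraries.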
